A study of Rattus norvegicus with 6 samples.

Results

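Expression of 9 chemokine genes and of interleukin 18 was examined in Suz12-depleted rat intestinal epithelial cells. The genes were Ccl2, Ccl7, Ccl5, Ccl20, Cxcl1, Cxcl2, Cxcl10, Cxcl12, Cx3cl1 and Il18, and every probe set (a group of probes that reads 1 transcript) annotated to exactly 1 of these 10 symbols was taken. This gave 12 of the 31042 probe sets tested and 10 of the 14217 named genes, with 3 for Cxcl12 and 1 for each other gene, and 0 probe sets with several symbols held any of them. Total RNA came from ShSuz12 cells and from control cells, with 3 arrays of Affymetrix rat expression probes in each group. Both were made from IEC-6, a non-tumorigenic cell line from rat small intestine that resembles undifferentiated crypt cells, and both were grown in medium with 5% fetal bovine serum. ShSuz12 cells carried a lentiviral short hairpin RNA (shRNA) against Suz12, and control cells, per the study's methods, a scrambled shRNA. Infected populations were selected with puromycin after an infection whose efficiency was estimated at 25%, and RNA of each group came from 3 separate experiments. Each group is therefore 1 selected line, made with 1 hairpin, and what the p-values reflect is the spread among experiments with these lines. No stimulus such as a cytokine is stated for these samples.

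Chemokines are small secreted proteins that bind receptors on leukocytes and direct their movement. They are grouped by the spacing of their first cysteines into CC, CXC and CX3C families. Epithelial cells of the gut make several of them after contact with microbes or inflammatory cytokines, and NF-kB, interferon-regulated factors, C/EBP and AP-1 proteins are known to switch on many of their genes. Interleukin 18 is a cytokine of the IL-1 family, which is stored as a precursor in epithelial cells and needs cleavage before it acts on lymphocytes. Suz12 is a core subunit of polycomb repressive complex 2, which places the trimethyl mark on lysine 27 of histone H3, a mark found at silent genes.

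Suz12 itself, the target of the shRNA, had log2 values of 5.82, 5.77 and 5.91 on the ShSuz12 arrays, against 8.45, 8.55 and 8.77 on the control arrays. The level was 6.77-fold lower in ShSuz12 cells (log2 fold change -2.76 with a standard error of 0.09, adjusted p = 2.78e-07, limma). All values here are log2 intensities after robust multi-array averaging (RMA), fold changes are ShSuz12 over control, and each p carries a Benjamini-Hochberg adjustment for the 31042 tests. Called means past both limits, 0.05 for the adjusted p and 2-fold for the difference. Pearson's r over the probe sets (no independent replicates) was 0.997 to 0.998 within a group and 0.979 to 0.980 across the groups. Array medians were 6.26 to 6.27 in ShSuz12 cells and 6.15 to 6.17 in control cells. The median log2 fold change over all probe sets was -0.05, and it was -0.15 when each array's median was subtracted, which lowers every difference given here by 0.10.

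The chemokine genes fell into 3 groups by how they differed. Ccl2, Ccl7, Ccl5, Ccl20, Cxcl1, Cxcl10, Cx3cl1 and Il18 were higher in ShSuz12 cells, Cxcl12 was lower, and Cxcl2 did not pass the test. Of the 12 probe sets, 8 were called higher at 2-fold, where 3.1% of all probe sets were, and 1 was called lower, where 0.396% of all were. At the adjusted p alone 8 were higher and 3 lower, beside 14.8% and 19.5% of all probe sets. On 8 probe sets every ShSuz12 array lay above every control array and on 3 every ShSuz12 array lay below, where 19.4% and 28.1% of all probe sets did so. The 12 log2 fold changes had a median of 2.14.

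**Figure D1:**
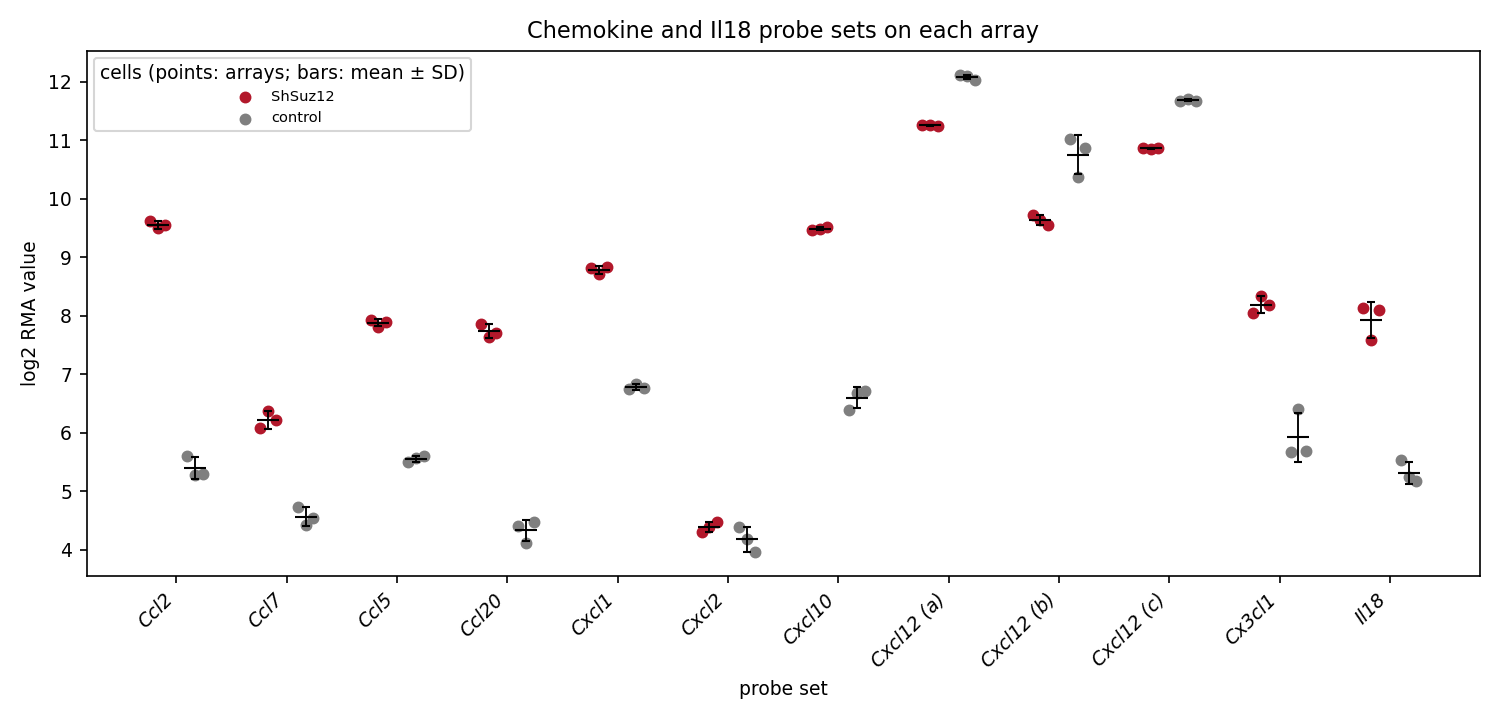
Log2 RMA value (vertical axis) of each of the 12 probe sets (horizontal axis), with the 3 ShSuz12 arrays (red) left of the 3 control arrays (grey); points are arrays, black bars are the mean ± SD, and Cxcl12 (a), (b) and (c) are 1369633_at, 1387655_at and 1388583_at. The groups overlap only for Cxcl2, and ShSuz12 cells lie below control cells for the 3 Cxcl12 probe sets alone.

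Among the CC chemokines, Ccl2 (probe set 1367973_at), which attracts monocytes through the receptor CCR2, differed by the widest margin of all the members. It had log2 values of 9.62, 9.50 and 9.54 in ShSuz12 cells, against 5.61, 5.28 and 5.29 in control cells. The arrays of each group lay close together, and the lowest ShSuz12 array stood 3.89 above the highest control array. Ccl2 rose 17.9-fold (95% confidence interval 15.4 to 20.7), a log2 difference of 4.16 ± 0.09 (standard error; adjusted p = 4.09e-08, limma). On the arrays it stood at percentile 88.8 of all probe sets in ShSuz12 cells and at percentile 40.3 in control cells.

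Ccl7 (1379935_at), a close relative of Ccl2 that also attracts monocytes, had log2 values of 6.07, 6.38 and 6.21 in ShSuz12 cells, against 4.73, 4.41 and 4.55 in control cells. The groups did not overlap, and even in ShSuz12 cells the probe set was near the middle of the array (percentile 49.4, against 27.2 in control cells). Ccl7 rose 3.15-fold (95% confidence interval 2.68 to 3.71, adjusted p = 1.07e-05, limma). Ccl2 and Ccl7 are adjacent genes on rat chromosome 10, and both rose.

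Ccl5 (1369983_at), also known as RANTES, attracts T cells and monocytes. Its log2 values were 7.93, 7.81 and 7.89 in ShSuz12 cells, against 5.50, 5.56 and 5.60 in control cells. Both groups were tight and far apart, and Ccl5 rose 5.01-fold (95% confidence interval 4.57 to 5.49, adjusted p = 7.08e-08, limma). Ccl20 (1369814_at), the ligand of CCR6, is made by the epithelium over lymphoid follicles of the gut, where it draws dendritic cells and lymphocytes. It had log2 values of 7.87, 7.64 and 7.70 in ShSuz12 cells, against 4.40, 4.12 and 4.47 in control cells. Control cells were thus at percentile 22.7 of the array and ShSuz12 cells at percentile 68.3. Ccl20 rose 10.6-fold (95% confidence interval 8.99 to 12.5, adjusted p = 1.98e-07, limma), and the lowest ShSuz12 array lay well above the highest control array.

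Among the CXC chemokines, Cxcl1 and Cxcl2 both encode neutrophil attractants that signal through CXCR2, and they are next to each other on rat chromosome 14. Cxcl1 (1387316_at) had log2 values of 8.81, 8.71 and 8.84 in ShSuz12 cells, against 6.74, 6.84 and 6.77 in control cells. The groups were far apart, and Cxcl1 rose 4.00-fold (95% confidence interval 3.65 to 4.40, adjusted p = 1.70e-07, limma). Cxcl2 (1368760_at) had log2 values of 4.31, 4.38 and 4.47 in ShSuz12 cells, against 4.38, 4.18 and 3.96 in control cells. Its groups overlapped, since control replicate 1 equalled the middle ShSuz12 array to this precision, and the signal was low in both groups (percentile 23.5 in ShSuz12 cells and 19.6 in control cells). The log2 fold change of Cxcl2 was 0.21 (95% confidence interval -0.03 to 0.45, adjusted p = 0.155, limma), so a rise of up to 1.37-fold remained within the interval. Without control replicate 1 it was 0.32 with an adjusted p of 0.0353 from limma, still under 2-fold. Whether probes of such similar genes bind each other's transcripts was not tested.

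Cxcl10 (1387969_at), known as an interferon-induced ligand of CXCR3 that attracts activated T cells and natural killer cells, had log2 values of 9.46, 9.49 and 9.51 in ShSuz12 cells, against 6.39, 6.68 and 6.72 in control cells. The ShSuz12 arrays were almost equal, and control replicate 1 was the lowest array. Cxcl10 rose 7.42-fold (95% confidence interval 6.45 to 8.54, adjusted p = 2.08e-07, limma). It stood at percentile 88.2 of the array in ShSuz12 cells and 54.9 in control cells.

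Cxcl12, the ligand of CXCR4 that is known for steady production in many tissues, was the gene that differed in the other direction, and its 3 probe sets did so together. Probe set 1369633_at had log2 values of 11.26, 11.27 and 11.24 in ShSuz12 cells, against 12.11, 12.10 and 12.04 in control cells. Probe set 1388583_at had 10.87, 10.85 and 10.87 in ShSuz12 cells, against 11.68, 11.71 and 11.67 in control cells. Both were 1.77-fold lower in ShSuz12 cells and so fell short of the 2-fold limit, with log2 fold changes of -0.83 (adjusted p = 1.03e-05, limma) and -0.82 (adjusted p = 8.08e-06, limma). The third, 1387655_at, had 9.71, 9.63 and 9.55 in ShSuz12 cells, against 11.02, 10.37 and 10.88 in control cells, and here the control arrays were more spread. It was 2.18-fold lower (log2 fold change -1.12, standard error 0.15, adjusted p = 7.57e-04, limma) and was the only probe set of the members called lower at 2-fold. Without control replicate 1 its log2 fold change was -0.99, just short of 2-fold. Cxcl12 signal stayed among the brightest on the array in both groups, at percentiles 89.4 to 97.3 in ShSuz12 cells and 95.4 to 98.8 in control cells.

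Cx3cl1 (1368200_at) encodes fractalkine, which is anchored in the cell membrane by a mucin-like stalk and binds CX3CR1 on monocytes and lymphocytes. It had log2 values of 8.05, 8.35 and 8.18 in ShSuz12 cells, against 5.67, 6.40 and 5.69 in control cells. Replicate 2 was the highest array in each group, and control replicate 2 stood above the other control arrays but below all ShSuz12 arrays. Cx3cl1 rose 4.82-fold (95% confidence interval 3.57 to 6.51, adjusted p = 5.44e-05, limma), and leaving out any 1 array kept its log2 fold change between 2.15 and 2.51. Il18 (1369665_a_at) had log2 values of 8.13, 7.58 and 8.09 in ShSuz12 cells, against 5.53, 5.25 and 5.17 in control cells. ShSuz12 replicate 2 was the lowest of its group and still lay above every control array. Il18 rose 6.13-fold (95% confidence interval 4.78 to 7.88, adjusted p = 8.85e-06, limma).

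**Figure D2:**
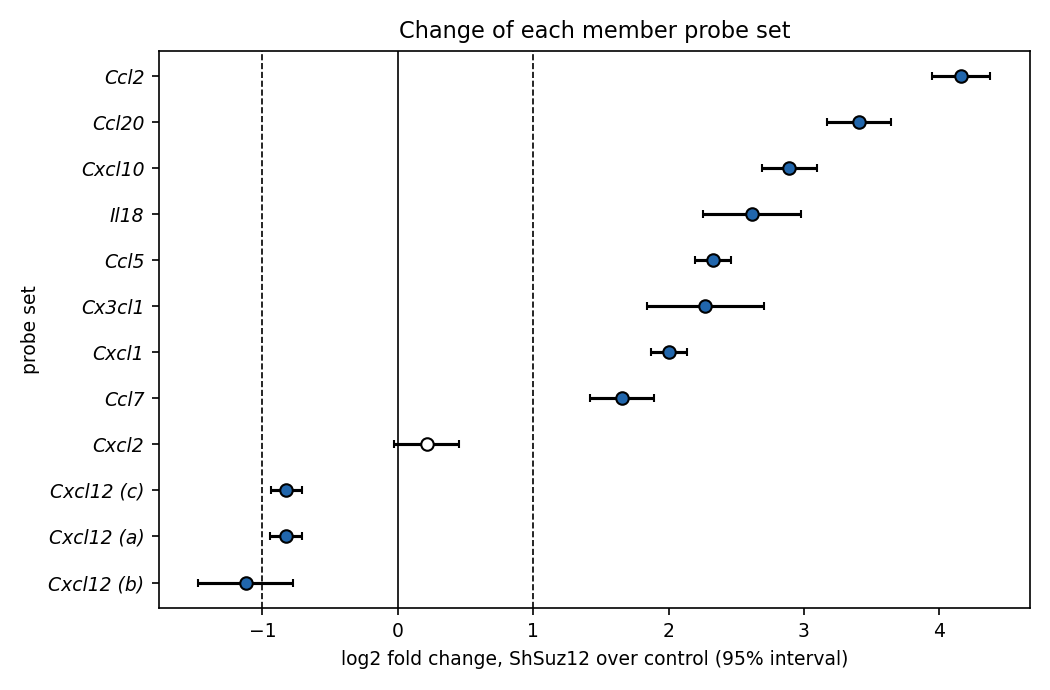
Log2 fold change of ShSuz12 over control (horizontal axis) for the 12 probe sets, with points for the limma estimates (open where the adjusted p missed 0.05) and bars for 95% confidence intervals; dashed lines are the 2-fold limits. Ccl2 lies highest at 4.16, the interval of Cxcl2 reaches from -0.03 to 0.45, and the 3 Cxcl12 probe sets lie at -0.82, -0.83 and -1.12.

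The members lie on 6 rat chromosomes, several of them inside chemokine clusters, and the next 5 protein-coding genes on each side were read from the same arrays. Gene order came from the RefSeq table of the rat assembly GRCr8, and each gene was represented by its probe set with the highest mean. Of 52 measured neighbours that are not members, 1 was called higher at 2-fold and 0 lower, where 3.82% and 0.422% of all genes were called, and the median log2 fold change of the 52 was -0.04. The called neighbour was Plet1, a gene near Il18 known in mouse for a surface protein of epithelial progenitors, which rose by 1.65 on the log2 scale (adjusted p = 1.7e-06, limma). Other neighbours passed the adjusted p in either direction but stayed under 2-fold. Examples picked with their values known were Asic2 near Ccl2, at 0.61 (adjusted p = 5.88e-04, limma), and Pih1d2 near Il18, at -0.97 (adjusted p = 8.11e-05, limma).

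Within the clusters, rises stood beside genes that were not called. Ccl11, the eotaxin gene next to Ccl7, stood at -0.07 on the log2 scale (adjusted p = 0.574, limma). Next to Ccl5 lie Ccl9, Ccl6, Ccl3 and Ccl4, whose log2 fold changes were -0.12, -0.06, -0.15 and -0.12, and none of them passed at the adjusted p. In the Cxcl1 cluster, Cxcl3, Pf4, Ppbp and Cxcl6 had values of -0.10, -0.19, 0.02 and 0.14, again with none past the adjusted p. Cxcl10 is flanked by the genes of the other ligands of CXCR3, Cxcl11 and Cxcl9. Cxcl11 rose by 0.76 (adjusted p = 0.00209, limma), with mean log2 values of 5.20 in ShSuz12 cells and 4.44 in control cells. Cxcl9 had a log2 fold change of -0.02 at mean values of 3.88 in ShSuz12 cells and 3.90 in control cells. Its other probe set gave -0.24. Cx3cl1 lies between Ccl17, with a log2 fold change of -0.06, and Ccl22, which fell by 0.29 on the log2 scale (adjusted p = 0.0292, limma). Most of these neighbours were dim, and of the chemokines among them only Cxcl3 stood above the array median (percentile 53.6 in ShSuz12 cells and 55.7 in control cells).

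**Figure D3:**
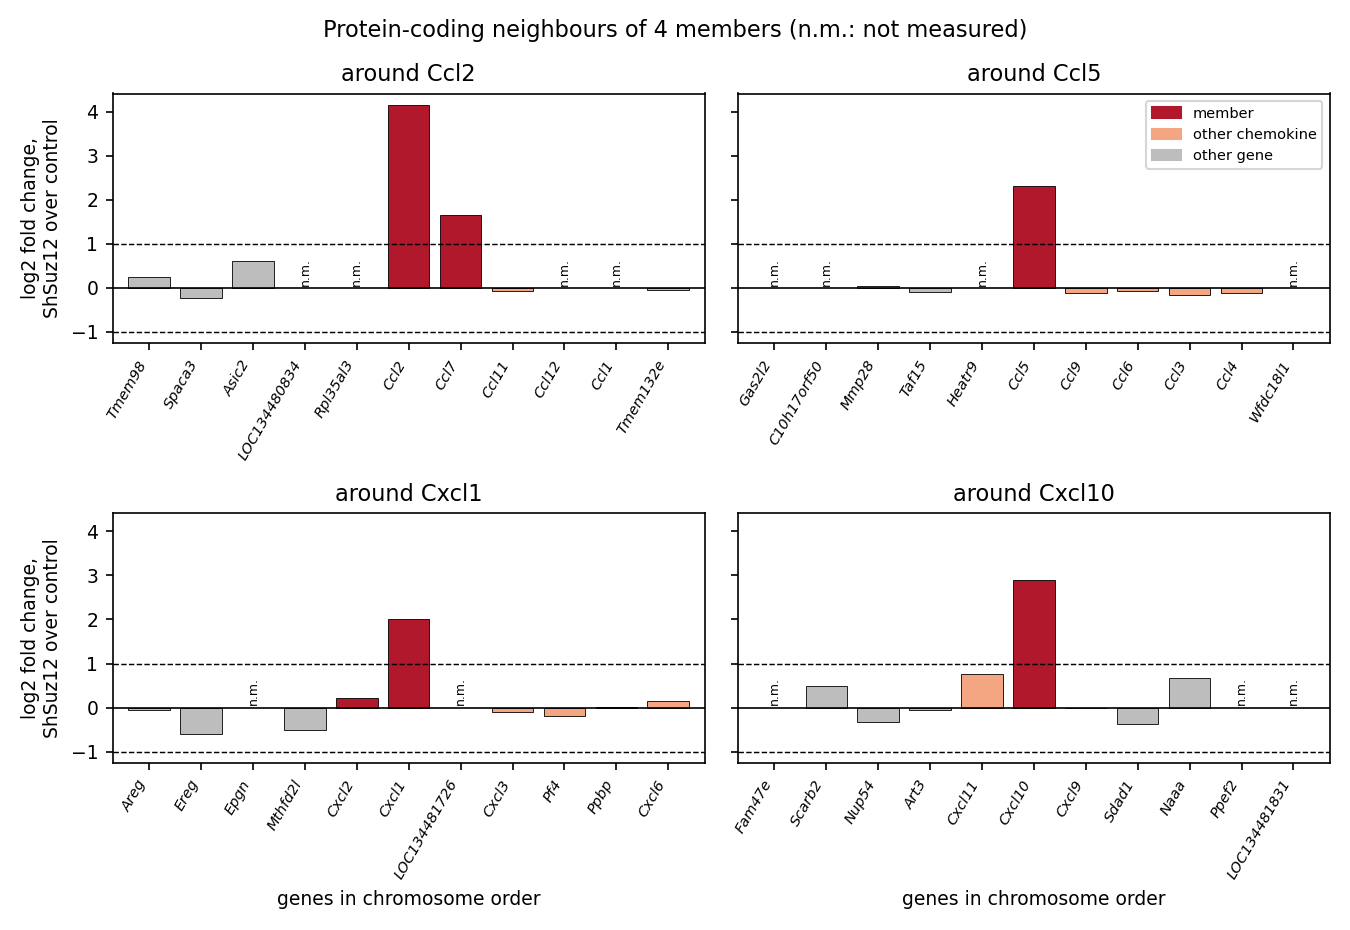
Log2 fold change of ShSuz12 over control (vertical axis) around Ccl2, Ccl5, Cxcl1 and Cxcl10, for each of them and the 5 protein-coding genes on each side in GRCr8 gene order (bars in chromosome order, not to scale in bases); members are red, other chemokines orange, other genes grey, and genes with no value n.m. Ccl2, Ccl5, Cxcl1 and Cxcl10 stand above neighbours such as Ccl11 at -0.07, Ccl3 at -0.15, Cxcl3 at -0.10 and Cxcl9 at -0.02.

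The promoters are shown for 5 members that differ in response: Ccl20, Cxcl1 and Cxcl10, which rose, Cxcl2, which did not pass the test, and Cxcl12, which was lower. Each run holds the 250 bases before the transcription start, 5′ to 3′ on the strand of the gene, from the RefSeq promoter table of GRCr8. Capitals mark matches on either strand to an NF-kB motif, GGG and TTCC with any 3 bases between them, and overlapping matches run together.
Ccl20 (chr9:91836909-91837158, plus strand): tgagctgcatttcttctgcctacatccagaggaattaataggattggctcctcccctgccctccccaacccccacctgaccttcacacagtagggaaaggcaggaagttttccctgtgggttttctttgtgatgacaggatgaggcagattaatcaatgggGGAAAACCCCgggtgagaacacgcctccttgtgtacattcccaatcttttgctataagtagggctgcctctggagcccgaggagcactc
Cxcl1 (chr14:17479322-17479571, minus strand): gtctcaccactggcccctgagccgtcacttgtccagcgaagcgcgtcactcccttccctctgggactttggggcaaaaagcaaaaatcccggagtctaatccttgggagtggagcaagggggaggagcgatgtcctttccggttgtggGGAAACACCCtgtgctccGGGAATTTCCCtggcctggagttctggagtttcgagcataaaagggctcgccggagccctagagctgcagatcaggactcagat
Cxcl10 (chr14:15988816-15989065, plus strand): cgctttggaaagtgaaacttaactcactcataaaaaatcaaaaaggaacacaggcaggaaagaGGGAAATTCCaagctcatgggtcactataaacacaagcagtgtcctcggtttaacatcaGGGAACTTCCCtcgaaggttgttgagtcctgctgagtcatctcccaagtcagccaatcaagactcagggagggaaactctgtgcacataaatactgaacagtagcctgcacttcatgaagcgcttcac
Cxcl2 (chr14:17467256-17467505, minus strand): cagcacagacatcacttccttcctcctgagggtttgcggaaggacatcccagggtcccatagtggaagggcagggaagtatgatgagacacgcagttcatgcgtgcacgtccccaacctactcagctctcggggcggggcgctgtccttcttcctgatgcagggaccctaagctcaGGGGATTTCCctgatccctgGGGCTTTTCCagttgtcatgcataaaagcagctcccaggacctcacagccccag
Cxcl12 (chr4:152060531-152060780, plus strand): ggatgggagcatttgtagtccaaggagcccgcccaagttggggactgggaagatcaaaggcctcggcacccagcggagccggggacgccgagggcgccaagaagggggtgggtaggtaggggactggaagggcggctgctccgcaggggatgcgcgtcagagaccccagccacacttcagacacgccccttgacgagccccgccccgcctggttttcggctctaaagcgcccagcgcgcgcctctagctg

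The table held promoters of 8 of the 10 genes, each of 300 bases from 250 before to 50 after the start, and Ccl2 and Ccl5 are named only. That NF-kB motif was found on either strand in 5 of the 8, namely Ccl20, Ccl7, Cxcl1, Cxcl10 and Cxcl2, and in 5.37% of all 33469 promoters of the same length. Cxcl1 and Cxcl2 both held it close to the start, at positions -102 to -93, -84 to -75 and -83 to -74 in Cxcl1 and at -74 to -65 and -54 to -45 in Cxcl2. These letters were thus found both in Cxcl1, which rose, and in its neighbour Cxcl2, which did not pass the test at a low signal. In Ccl20 the match lay at -89 to -80, in Ccl7 at -59 to -50, and in Cxcl10 at -187 to -178, -128 to -119 and -127 to -118. The interferon-stimulated response element, TTTC and TTTC with any 2 bases between them, was found in Cxcl10 alone of the 8 (3.92% of all promoters), at -243 to -234 on the minus strand.

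The other motifs were searched on both strands as well. The AP-1 motif TGANTCA was found in Ccl7, Cxcl10 and Il18 (7.33% of all promoters) and the STAT motif TTCNNNGAA in Ccl7 (8.87%). The C/EBP motif TTGCNNAA was found in Cxcl2 (10.6%) and the TATA box letters TATAAA in Ccl7, Cx3cl1 and Cxcl10 (14.2%). TATAAA lay at -34 to -29 in Ccl7, at -78 to -73 in Cx3cl1 and at -162 to -157 in Cxcl10. After the start lay the STAT match of Ccl7 (32 to 40) and the AP-1 match of Il18 (6 to 12). None of the 6 motifs was found in the Cxcl12 window. A match describes these letters only and is not a measured binding site. The promoters also differed in their number of CG pairs, which are dense in CpG islands. Cxcl12 held 23 and Cx3cl1 held 20 in 300 bases, at GC shares of 66.7% and 66.3%. Cxcl1 held 11, Cxcl2 held 7, Cxcl10 held 6, Il18 held 4, and Ccl20 and Ccl7 held 3 each, beside a median of 7 and quartiles of 3 and 19 over all promoters. The promoters with the most CG pairs were thus those of Cxcl12, which was lower in ShSuz12 cells, and Cx3cl1, which was higher.

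**Figure D4:**
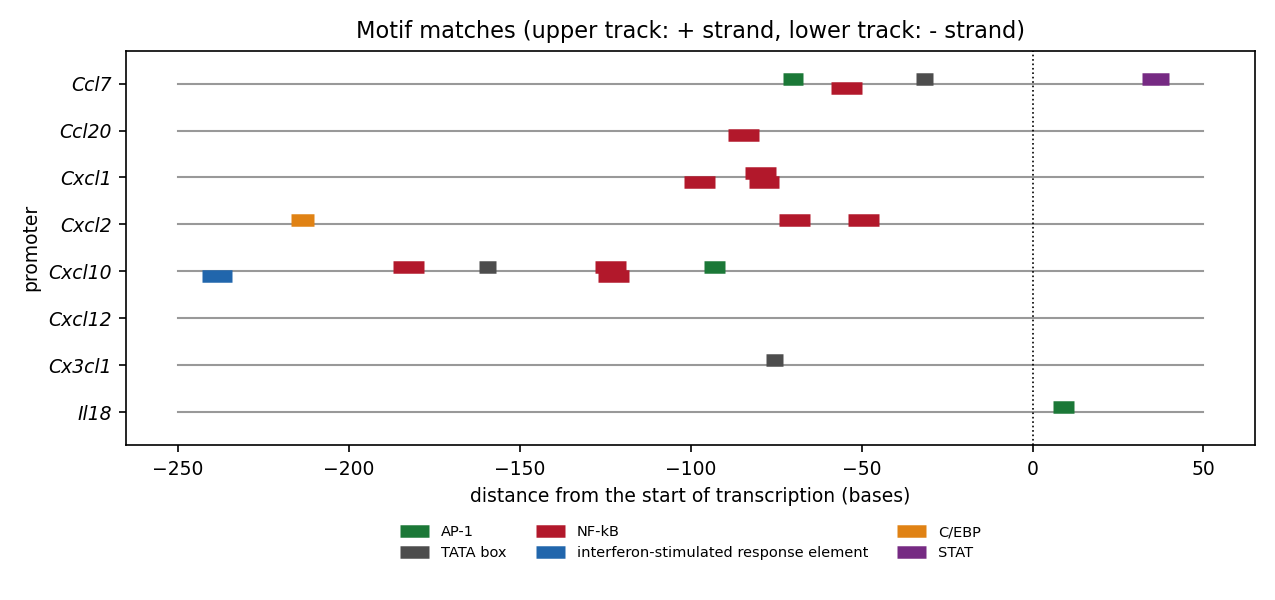
Matches to the searched motifs along the promoters of 8 members, drawn by distance in bases from the transcription start (horizontal axis, -250 to 50), with 1 row per gene, 1 colour per motif, and the plus strand drawn above the minus strand. NF-kB matches lie in 5 rows, Cxcl1 and Cxcl2 among them, and the Cxcl12 row is empty.

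Genes around the members were read by list, each gene by its probe set with the highest mean, beside all 14217 genes, of which 3.82% were called higher and 0.422% lower at 2-fold and 17.1% and 23.3% at the adjusted p alone. Of 26 other chemokine genes 22 were measured, and 1 was called higher at 2-fold and 0 lower, while at the adjusted p alone 4 were higher, 2 were lower and 16 did not pass (median log2 fold change -0.07). The one called was Cxcl14, a chemokine of epithelia. It had log2 values of 6.31, 6.76 and 6.99 in ShSuz12 cells, against 3.91, 4.39 and 4.99 in control cells, the widest spread among the chemokines described here, and still with no overlap. Cxcl14 rose by 2.26 (standard error 0.27, adjusted p = 3.90e-04, limma), but its other probe set gave 0.12 (adjusted p = 0.168, limma).

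Of 24 chemokine receptor genes 17 were measured, none was called at 2-fold, and 2 were higher and 1 lower at the adjusted p alone (median -0.04). The receptors of the members were mostly low in both groups. Ccr2, the receptor of Ccl2 and Ccl7, had mean log2 values of 3.63 in ShSuz12 cells and 3.50 in control cells, and Ccr6, that of Ccl20, had 4.25 in ShSuz12 cells and 4.41 in control cells. Cxcr2, that of Cxcl1 and Cxcl2, had 4.16 in ShSuz12 cells and 4.36 in control cells, and Cx3cr1 had 4.16 in ShSuz12 cells and 4.31 in control cells, and none of these 4 passed at the adjusted p. Cxcr3, the receptor of Cxcl10, rose by 0.24 (adjusted p = 0.0392, limma) at mean values of 5.10 in ShSuz12 cells and 4.86 in control cells. Of the receptors of Cxcl12, Cxcr4 gave a log2 difference of 0.18 at its brightest probe set (adjusted p = 0.14, limma). The dimmer Cxcr4 probe sets rose by 0.52 (adjusted p = 0.00613, limma) and 0.48 (adjusted p = 0.0142, limma). Ackr3, which takes up and removes the chemokine, fell by 0.33 on the log2 scale (adjusted p = 0.00123, limma) at mean values of 12.56 in ShSuz12 cells and 12.89 in control cells, near the top of the array in both.

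Genes around interleukin 18 were read from a list of its processing and receptor genes and other IL-1 family members. Of 20 listed genes 12 were measured, the receptor genes Il18r1 and Il18rap not among them, and 0 were called at 2-fold, while 1 was lower at the adjusted p alone (median log2 fold change -0.08). Casp1, the protease that cleaves the Il18 precursor, gave a log2 difference of 0.29 (adjusted p = 0.0796, limma), and Il18bp, a secreted protein that neutralizes interleukin 18, one of 0.09 (adjusted p = 0.377, limma). Il1a and Il1b, the IL-1 cytokines themselves, had values of -0.03 and -0.07, and the other Il1a probe set had -0.24. Gsdmd, the pore protein through which mature IL-1 family cytokines leave cells, fell by 0.53 on the log2 scale (adjusted p = 2.38e-04, limma). Except where a gene was called at 2-fold, the list genes named here were picked by their role beside the members with their values known.

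Proteins that cleave or hold chemokines showed more calls, with 4 of 19 measured genes called higher at 2-fold and 0 lower. At the adjusted p alone 8 were higher, 2 lower and 9 did not pass (median 0.05). The 4 called were Mmp2, a matrix metalloproteinase that trims Ccl7 and Cxcl12, Gpc1, a heparan sulfate proteoglycan of the cell surface, Vcan, a matrix proteoglycan, and Tnfaip6, a hyaluronan-binding protein induced in inflammation. Gpc1 rose by 2.54 (standard error 0.05, adjusted p = 2.26e-08, limma), with mean log2 values of 10.12 in ShSuz12 cells and 7.58 in control cells. Mmp2 rose by 2.56 at its brighter probe set and had a value of -0.18 at the other, and Tnfaip6 rose by 1.76 at the brighter and had 0.07 at the other, and the mean of its probe sets, 0.91, fell short of 2-fold. The brightest Vcan probe set rose by 1.78, and the others ran between 0.12 and 4.00. Adam17 and Adam10, the membrane proteases that release Cx3cl1 from the cell surface, went opposite ways: Adam17 rose by 0.91 (adjusted p = 7.68e-06, limma) and Adam10 fell by 0.47 on the log2 scale (adjusted p = 0.0246, limma). Ext1, also of this list, had -0.63 at its brighter probe set (adjusted p = 9.63e-05, limma) and -0.89 at the other.

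Transcription factors known to act on chemokine genes, with some of their regulators, were read by list as well. At 2-fold, 3.82% of all genes were called higher and 0.422% lower. In the NF-kB list 2 of 12 measured genes were called higher and 0 lower, with 6 higher and 3 lower at the adjusted p alone (median 0.08). These 2 were Bcl3, a nuclear IkB protein, which rose by 1.36 (its other probe sets 0.65 and 0.25, and 0.75 for the mean of all 3, under 2-fold), and Tnfaip3, a feedback inhibitor of NF-kB, which rose by 1.12 (adjusted p = 6.74e-05, limma). Rela, the p65 subunit, gave -0.12 on that scale (adjusted p = 0.257, limma). In the list of interferon regulatory factors and STATs, 1 of 14 was called higher and 0 lower, with 7 higher and 1 lower at the adjusted p alone (median 0.13). The one called was Irf7, an interferon-induced factor, which rose by 1.41 (standard error 0.05, adjusted p = 5.75e-07, limma), and Stat3 rose by 0.97 (adjusted p = 5.56e-05, limma) and by 0.71 at its other probe set.

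In the list of C/EBP and AP-1 factors none of 14 was called at 2-fold, but 8 were higher and 1 lower at the adjusted p alone, where 17.1% and 23.3% of all genes were, with a median of 0.32. Cebpd rose by 0.98 at each of its brighter probe sets and had 0.13 at the dimmest, and Cebpb rose by 0.62 (adjusted p = 0.00127, limma). Among receptors and adaptors upstream of these factors, 1 of 23 was called higher and 0 lower, with 7 higher and 4 lower at the adjusted p alone (median -0.02). It was Tlr4, the receptor for bacterial lipopolysaccharide, which had log2 values of 6.90, 6.85 and 6.51 in ShSuz12 cells, against 4.25, 4.35 and 4.49 in control cells, a rise of 2.39 (adjusted p = 2.21e-06, limma). Of 14 measured regulators of the decay of inflammatory mRNAs, 0 were called at 2-fold in either direction and 5 were higher and 2 lower at the adjusted p alone (median 0.01). Among 10 measured reference genes 0 were called at 2-fold, and 2 were higher and 3 lower at the adjusted p alone (median -0.06).

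**Figure D5:**
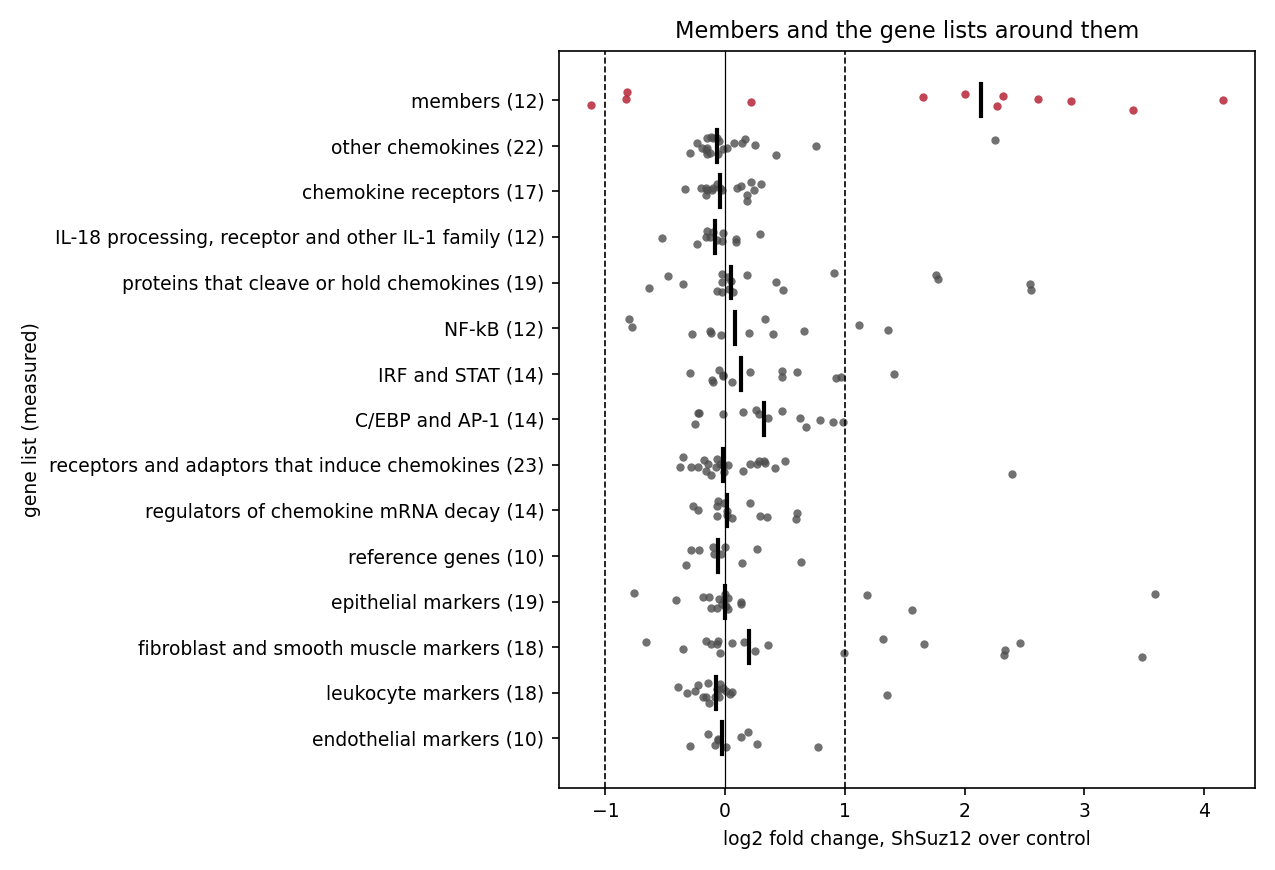
Log2 fold change of ShSuz12 over control (horizontal axis) for the 12 member probe sets and for each gene of the surrounding lists, 1 row per list, with points for genes and a bar for the list median; lines mark no difference and the 2-fold limits. The median of the members is 2.14, and the medians of the lists lie between -0.08 and 0.32. Single member probe sets spread between -1.12 and 4.16, and single list genes between -0.80 and 3.59.

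Chemokines are also made by cell types other than the epithelium, and marker lists of such cells were read on the same arrays. In bulk RNA, fewer cells of a type and less RNA per cell cannot be told apart. Leukocyte markers were low, with 1 of 18 measured called higher (Lcp1, by 1.36) and 0 lower, and with 1 higher and 4 lower at the adjusted p alone (median -0.08). Their summed linear signal was 1399 to 1476 in ShSuz12 cells and 1573 to 1609 in control cells, and Ptprc, the common leukocyte antigen, was at percentile 10.1 of the array in ShSuz12 cells and 13.6 in control cells. Fibroblast and smooth muscle markers were called higher in 6 of 18 and lower in 0. At the adjusted p alone 8 were higher, 2 lower and 8 did not pass (median 0.20), with a summed signal of 49971 to 51826 in ShSuz12 cells and 33685 to 36122 in control cells. Bright genes weigh most in this sum, Col3a1 among them, with mean log2 values of 13.44 in ShSuz12 cells and 11.11 in control cells. Among those called, Postn rose by 3.48, Lum by 2.46, Col1a2 by 2.34 and Col3a1 by 2.33, all matrix genes, while Vim, at the top of the array in both groups, had a value of -0.06. The part of this shift in the chemokine values was not tested. Endothelial markers had 0 of 10 called at 2-fold and 2 higher and 0 lower at the adjusted p alone (median -0.03), with a summed signal of 429 to 453 in ShSuz12 cells and 386 to 399 in control cells. RMA values have no 0, so a low percentile is the sign used here for a marker with little or no signal.

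Epithelial markers were mixed in both lines. Cdh1, the epithelial cadherin, was at percentile 98.4 of the array in ShSuz12 cells and 99.3 in control cells and fell by 0.76 on the log2 scale (its other probe set -0.21), whereas Epcam, a surface protein of most epithelia, was dim in both, at percentile 6.55 in ShSuz12 cells and 5.92 in control cells. Krt18 was dim as well, with mean log2 values of 3.60 in ShSuz12 cells and 3.63 in control cells. Of 19 markers 3 were called higher, namely the crypt stem cell receptor Lgr5 by 3.59, the intestinal factor Cdx2 by 1.56 and the keratin Krt19 by 1.19, and 0 were called lower. At the adjusted p alone 3 were higher and 2 lower (median -0.01). The summed signal of the list was 5255 to 5459 in ShSuz12 cells and 7450 to 8292 in control cells. Bright genes weigh most in such a sum, here Cdh1, which fell, so the sum does not describe the list as a whole. What part these differences have in the chemokine values was not tested.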

How the data were processed

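RNA of 3 ShSuz12 and 3 control samples was hybridized to 6 arrays. The deposited log2 values were made by the authors with the RMA method in FlexArray, which corrects the background, brings the arrays to a common scale and summarizes the probes of a set. The RMA version and the genome build are not given in the sources used here. Scanner files and detection calls were not used here, so a dim probe set may hold mostly background. From the deposited values, 57 control probe sets were left out and 31042 of 31099 were compared by limma 3.58.1 (R 4.3.3, functions lmFit and eBayes, two-sided, Benjamini-Hochberg over all probe sets, no filter on level). The script was tested on simulated data with known changes. With 3 arrays a group, the number of arrays limits the precision. Samples were grouped by their labels.

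Names came from the platform annotation: 20826 probe sets had 1 symbol and 436 several, while 9780 without an entry remain unnamed. The GRCr8 gene table changed 0 symbols. A gene of a list was read from the probe set with 1 symbol and the highest mean over the 6 arrays. A summed signal adds linear values, 2 to the power of each log2 value, so bright genes weigh most in it. The members and lists were chosen with earlier results of these data known. Named were all members, Suz12, up to 4 genes of each list called at 2-fold with the largest change, Cebpb, Cebpd, Rela and Stat3, and further genes by role, as stated beside them. Neighbours were taken from the gene order of GRCr8, 5 on each side, and promoters from its RefSeq table.

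Alternatives were the methods' t-test (Student's t-test of each probe set, with and without adjustment), percentile filters, an intensity trend, subtraction of array medians, quantile normalization once more, other fold limits, averaging the probe sets of a gene, a replicate block and leaving out each array. Replicate numbers occur in both groups, but the labels do not say that a number marks a shared experiment. Figures were drawn with matplotlib 3.10.9 in Python 3.11.15.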

Additional observations from a re-analysis of the deposited data

How the results depend on the processing

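The 8 members called higher at 2-fold stayed at 8 under every alternative that kept their probe sets. The filter at the 60th percentile left 13098 probe sets and dropped Ccl7 and Cxcl2, so that 7 were called higher, and that at the 40th percentile left 19253 and dropped Cxcl2. Of 165 values of single member probe sets under the alternatives, 164 kept their direction and their side of the adjusted p threshold (the fold limit not counted), and the other was Cxcl2, whose log2 fold change ran between 0.11 and 0.32 when arrays were left out in turn and passed the adjusted p only without control replicate 1 (0.32, adjusted p = 0.0353, limma), its adjusted p reaching 0.394 without control replicate 3. The count of members called lower was 1, ran between 0 and 1 when arrays were left out (0 without control replicate 1, where Cxcl12 probe set 1387655_at had -0.99), and was 3 with no fold limit and with a 1.5-fold limit.

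Over all probe sets 1084 were called, 961 higher and 123 lower. The 60th percentile filter gave 657, with 557 higher, no fold limit 10661 (4607 higher, 6054 lower), a 1.5-fold limit 2681 (1950 and 731), and subtracting array medians 194 lower. In the 9 lists other than those of markers and reference genes, 9 genes were called, 9 higher and 0 lower, and 64 with no fold limit, 47 higher and 17 lower. Averaging the probe sets of a gene gave 7, without Tnfaip6 and Bcl3, and among the markers Pdgfrb lost its call (0.88).

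Deviations from the group mean correlated at 0.017, -0.042 and -0.064 between same-numbered samples, and between -0.044 and 0.085 for other pairs. With 3 arrays a group, these values cannot tell whether a number marks a shared experiment. With the replicate block 1085 probe sets were called, 962 higher and 123 lower, and 8 members were higher and 1 lower.

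The low signal of Cxcl2 in both groups, and of Ccl20 and Ccl7 in control cells, limits how well their differences were measured. Control cells also stood below the array median for Il18 (percentile 39.2), Ccl2 (40.3), Ccl5 (42.4) and Cx3cl1 (46.9).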
